A study of Homo sapiens with 18 samples.

Results

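The comparison described here asks what a nuclear methionase did to the transcriptome of HEK293T cells when the lipid kinase VPS34 was inhibited at the same time. It takes 6 of the 18 libraries of the series, chosen by their labels: 3 of cells transfected for 24 h with MethionaseNLS and 3 of cells transfected for 24 h with the empty pLEX vector, all treated with 5 µM Vps34-IN1 for 12 h. The same contrast at 24 h without the inhibitor, 3 libraries of each vector with the vehicle DMSO, was used for comparison and shares no library with it. All cells were wild type HEK293T, a human embryonic kidney line that takes up plasmids readily. Every group was transiently transfected, no group carried an inactive methionase, and the construct itself has no row among the measured genes. The activity of the enzyme and the presence of a foreign nuclear protein therefore cannot be told apart. The labels do not say whether replicates came from separate cultures, and if they did not, the p-values cover technical spread alone.

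Methionase is a microbial enzyme that breaks down methionine, and the nuclear localisation signal in its name directs the protein to the nucleus. Methionine is the precursor of S-adenosylmethionine, the methyl donor of histone, DNA and RNA methyltransferases. VPS34, encoded by PIK3C3, is the only class 3 phosphoinositide 3-kinase. With its partners PIK3R4 and BECN1 it makes the phosphatidylinositol 3-phosphate that recruits proteins to early endosomes and to growing autophagosomes, and Vps34-IN1 blocks its catalytic activity.

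The 6 libraries held between 18278586 and 20518982 reads assigned to genes, and between 24354 and 26380 genes with at least 1 read. Of 13 genes listed as HEK293 markers, neuronal filament genes such as NEFM (10812 to 12860 normalised reads) were abundant, whereas SOX11 (0 to 4.10) and LHX1 (3.07 to 11.3) were near 0. The 11 markers of blood, endothelial, stromal and liver cells summed to 48.7 to 61.5 normalised reads in the vector libraries and 62.7 to 72.8 in the methionase libraries, with 3 of the 11 at 0 in each group. Methionase replicate 1 stood apart from its group in some stress genes. The heat shock co-chaperone gene DNAJB1 had 14647 normalised reads there, against 3159 and 1697 in the other two. Without that library 5738 genes were called in place of 7016, and without vector replicate 1 5741 were.

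Of the 17755 genes tested, 7016 (39.5%) differed between methionase and vector cells under Vps34-IN1 at an adjusted p below 0.05 in limma. Methionase was higher for 3079 of them (17.3% of the genes tested) and lower for 3937 (22.2%). In 44.6% of the genes the 3 methionase libraries lay wholly above or below the 3 vector libraries. On the log2 scale used here, which compresses differences of genes with few reads, 88 called genes were higher by at least 1 and 25 lower. With voom on the recovered counts, which lacks that compression, 777 were higher and 120 lower by as much. Of the first set, the 2 groups held different kinds of RNA: 51 of the 88 were small nucleolar RNAs (snoRNAs) and 17 were protein-coding, whereas 21 of the 25 were protein-coding and none was a snoRNA. Log2 differences here are on the deposited variance-stabilised scale, and normalised reads are counts divided by the size factor of the library. On the log2 scale the median of all tested genes was 0.01.

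**Figure D1:**
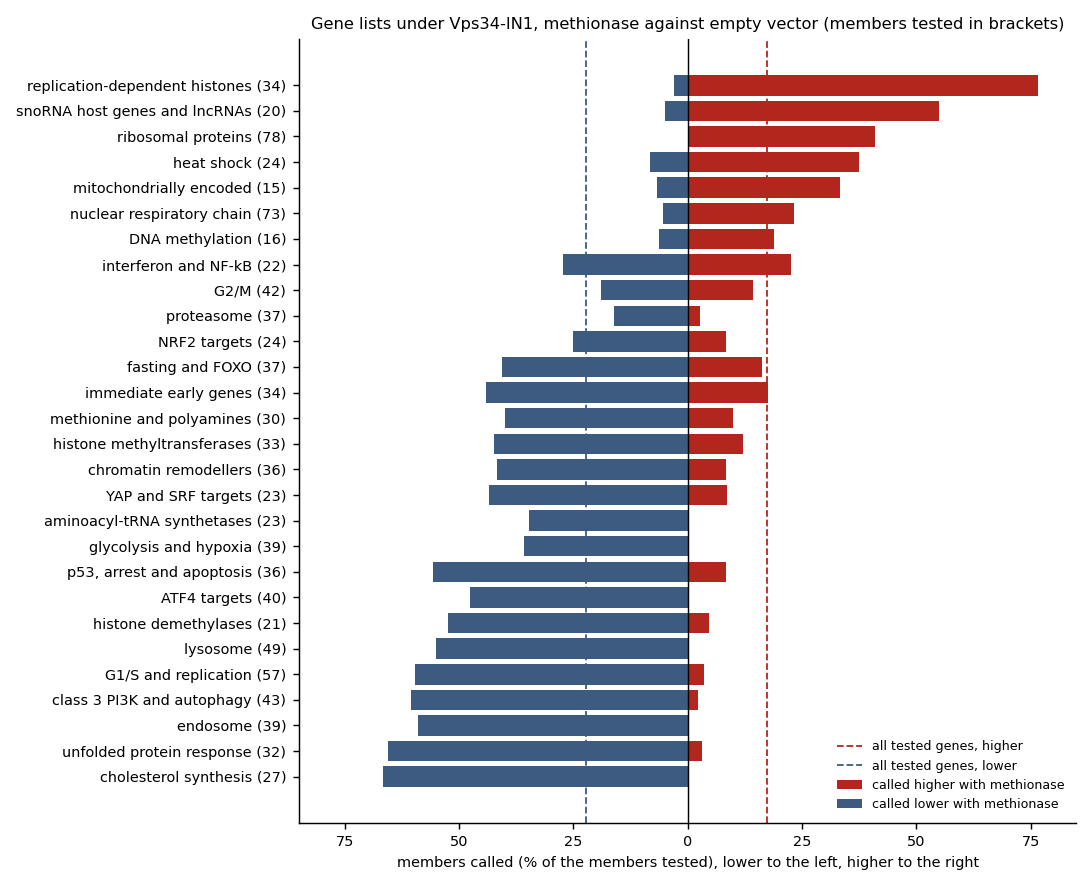
Share of tested members called higher (bars to the right) or lower (bars to the left) with methionase under Vps34-IN1 for 28 gene lists, with dashed lines at the shares of all tested genes, 17.3% and 22.2%. Histone genes and snoRNA host genes reached furthest to the right, and cholesterol synthesis and unfolded protein response genes furthest to the left.

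Several of the 10 largest decreases were in genes that respond to growth factors, stretch or stress, among them RHOB and KLF6, which are on the list of immediate early genes, and TRIB1 and CCN1, which are not. TRIB1 encodes a pseudokinase that hands substrates to a ubiquitin ligase. It had 2827, 3341 and 3364 normalised reads in the vector libraries under Vps34-IN1 and 627, 770 and 901 in the methionase libraries. The groups did not overlap, and the difference was -1.95 on the log2 scale (SE 0.10, adjusted p = 9.47e-12), the largest decrease of any named gene. RHOB, an endosomal small GTPase induced by stress, fell from 61148, 66973 and 70920 reads to 17826, 24628 and 26184 (log2 difference -1.55, SE 0.13, adjusted p = 7.33e-09). KLF6, a zinc finger transcription factor, fell from 4687, 5864 and 6426 to 1727, 2446 and 2733 (-1.28, SE 0.12, adjusted p = 3.46e-08). CCN1, a secreted matricellular protein and target of YAP, fell from 2518, 3247 and 3231 to 795, 1208 and 2149 (-1.17, SE 0.19, adjusted p = 4.43e-05). In each of these genes every methionase library lay below every vector library.

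The list of immediate early genes had 34 members tested, of which 15 fell (44.1%, against 22.2% of all genes). Another 6 rose (17.6%, near the 17.3% of all genes) and 13 did not pass the test, with a list median of -0.24. Without methionase replicate 1 the median was -0.13, with 13 lower and 7 higher. The members that fell included the AP-1 subunit JUN (50025, 55315 and 63130 reads against 30087, 30940 and 28263, log2 difference -0.91), the MAP kinase phosphatase DUSP5 (-1.12), GADD45A (-0.72) and GADD45B (-0.96), which act in growth arrest and DNA repair, and ATF3 (-0.72, adjusted p = 0.0124). The ATF3 call rested on 1 library: without methionase replicate 1 the adjusted p was 0.144. The members that rose were led by the orphan nuclear receptor NR4A2, with 492, 715 and 874 reads in the vector libraries and 1231, 1991 and 1924 in the methionase libraries (log2 difference 1.21, adjusted p = 2.86e-06). The other AP-1 genes FOS (1.02), FOSB (0.97) and JUNB (0.77) rose as well. The AP-1 family thus moved in both directions, with JUN lower and its FOS and JUNB partners higher.

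In DMSO the list went the other way. There 19 of the 34 rose with methionase, against 18.1% of all tested genes, 1 fell, and the median was 0.53. RHOB had 4596, 4809 and 3780 reads with the vector and 23955, 19637 and 24506 with methionase in DMSO, so that the methionase libraries with and without the inhibitor had similar levels while the vector libraries under Vps34-IN1 had the highest. JUN was 6627, 7269 and 5358 with the vector and 33381, 26679 and 27129 with methionase in DMSO. The interaction, the difference under Vps34-IN1 minus the difference in DMSO, was called for 3878 genes (21.8%), positive for 9.92% of the genes tested and negative for 11.9%. In the immediate early list it was negative for 22 of 34 members and positive for 1. The most negative values of all named genes were those of RHOB (-3.90, adjusted p = 1.55e-12), CCN1 (-3.87, adjusted p = 8.99e-10), ATF3 (-3.19) and JUN (-3.08), followed by the histone gene H2BC21 (-2.78) and by KLF6 (-2.53). For TRIB1 (-2.11) the 2 groups in DMSO differed by 0.16 (adjusted p = 0.22, 692, 772 and 695 against 860, 734 and 852 reads), and only the vector libraries under Vps34-IN1 were high.

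**Figure D2:**
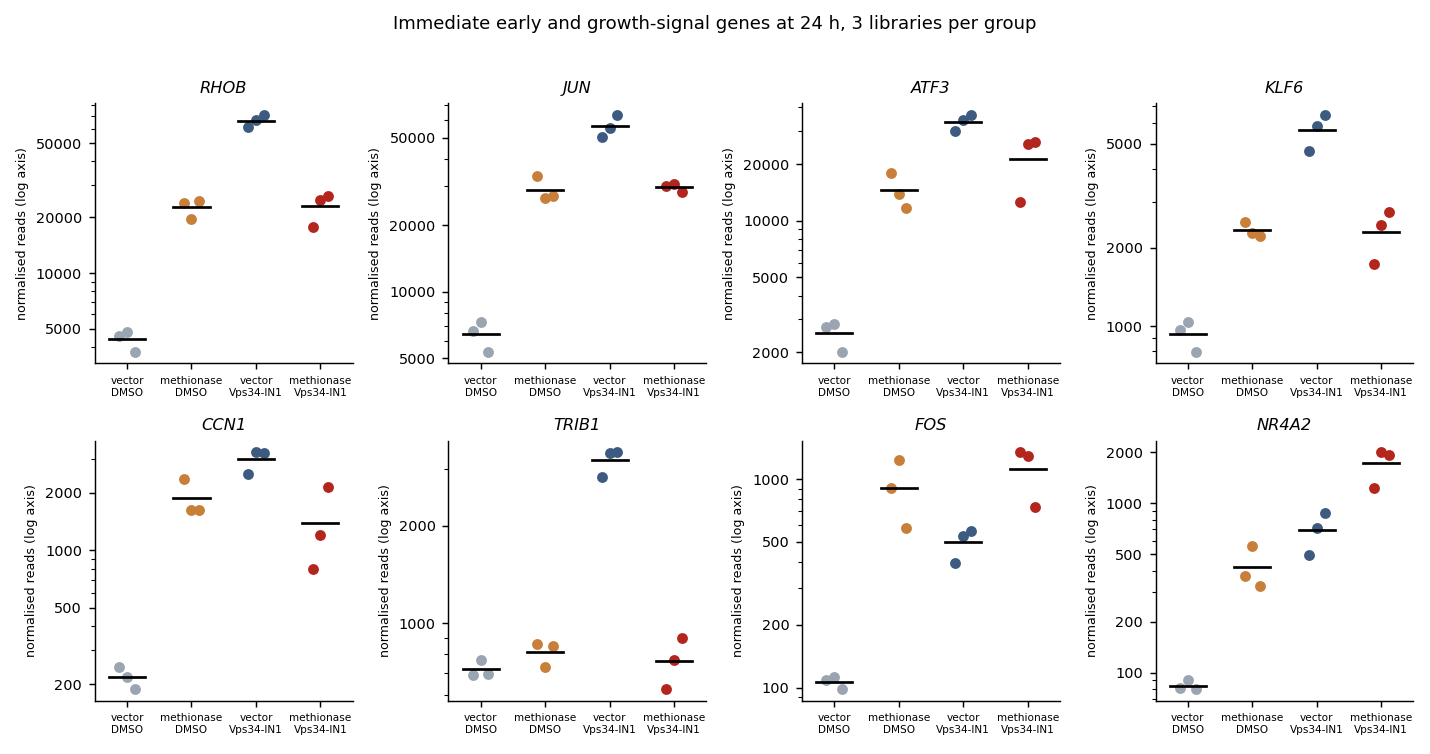
Normalised reads of 8 genes in the 4 groups at 24 h on log axes, with a point for each of the 3 libraries and a bar at the mean. RHOB, JUN, ATF3, KLF6, CCN1 and TRIB1 were highest in the vector libraries under Vps34-IN1, where TRIB1 reached 3364 reads, and the means of FOS and NR4A2 were highest with methionase under Vps34-IN1.

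Targets of YAP and of serum response factor, which read out cell tension and the actin skeleton, were lower too. Of 23 tested members 10 fell (43.5%, against 22.2% of all genes) and 2 rose. SRF itself had 2645, 2723 and 2694 reads in the vector libraries and 1270, 1399 and 1451 in the methionase libraries (log2 difference -0.93, SE 0.06, adjusted p = 1.93e-10). AMOTL2, a YAP inhibitor and target, fell by 0.63 and the adhesion protein gene VCL by 0.41. The actin binding genes TPM1 (0.24) and TAGLN (0.22) rose, and both calls were lost without vector replicate 1 (adjusted p = 0.129 and 0.147). That of TAGLN was also lost without vector replicate 2 (0.067) or methionase replicate 1 (0.17). In DMSO SRF differed by -0.15 (adjusted p = 0.0537), and the interaction was negative for 12 of the 23, against 11.9% of all genes.

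The proximal promoter of RHOB holds 2 CCAAT boxes, a short motif bound by the factor NF-Y, and is shown because RHOB had the most negative interaction. The 250 bases before its start site (chr2:20446824-20447073, plus strand, GRCh38.p14) are printed 5′ to 3′ from RefSeq, with CCAAT or its complement in capitals. No CRE (TGACGTCA, both strands) and no AP-1 site (TGACTCA or TGAGTCA) was found in that window. A CCAAT box was in 36.0% of the promoters of all tested genes and in 38.4% of those of genes with a negative interaction.
RHOB: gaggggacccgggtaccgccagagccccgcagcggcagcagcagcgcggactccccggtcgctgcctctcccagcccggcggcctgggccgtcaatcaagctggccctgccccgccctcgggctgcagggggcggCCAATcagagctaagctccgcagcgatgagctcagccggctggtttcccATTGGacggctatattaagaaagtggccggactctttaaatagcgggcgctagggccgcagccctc

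Genes of the unfolded protein response divided into a chaperone that rose and many members that fell. This response senses misfolded proteins in the endoplasmic reticulum through the sensors PERK, IRE1 and ATF6. HSPA5, the abundant chaperone BiP that keeps the sensors inactive, had 51387, 43183 and 48614 reads in the vector libraries under Vps34-IN1 and 68482, 92494 and 95948 in the methionase libraries (log2 difference 0.83, SE 0.13, adjusted p = 1.94e-05). It was the only one of the 32 tested members called higher, and 21 were called lower (65.6%, against 22.2% of all genes), with a median of -0.21. EIF2AK3, which encodes PERK, had 706, 627 and 673 reads with the vector and 183, 198 and 266 with methionase (-1.36, SE 0.09, adjusted p = 1.22e-10). The genes of the other sensors fell as well, ERN1 (IRE1) by 0.66 and ATF6 by 0.61. XBP1, whose mRNA IRE1 splices, had 7958, 8498 and 7783 reads with the vector and 3089, 5229 and 6099 with methionase (-0.79). SEC24D, a coat protein of vesicles that leave the endoplasmic reticulum, fell by 0.88 and SEL1L, an adaptor of the degradation of misfolded proteins, by 0.79.

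In DMSO 12 members of this list rose with methionase and 7 fell, against 18.1% and 21.1% of all genes. HSPA5 rose by 2.54 there, from 10986, 11561 and 10255 reads to 79146, 67978 and 48215, and its interaction was -1.71 (adjusted p = 6.11e-07). The interaction was negative for 20 of the 32 members and positive for none, against 11.9% and 9.92% of all genes. EIF2AK3 was lower with methionase in both settings, with a log2 difference of -1.36 under the inhibitor and -0.43 in DMSO. DDIT3, the stress factor CHOP, was at 2028, 1940 and 2076 reads with the vector and 863, 1581 and 1809 with methionase under Vps34-IN1 (-0.54, adjusted p = 0.0323), a call lost without methionase replicate 1 (0.308) and without vector replicate 1 (0.0725), 2 (0.054) or 3 (0.0809).

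The ER stress element, CCAAT and CCACG at a spacing of 9 bases of any kind (both strands), is the site through which ATF6 and NF-Y act. It was found in 6 of the 29 members of the list with a promoter in the RefSeq table (20.7%), against 0.124% of the promoters of all tested genes, and a plain CCAAT box, which each such element contains, in 89.7% against 36.0%. The elements are shown because genes that carry them went in different directions: of these 6 genes, HSPA5 rose, 3 fell and 2 were not called. Capitals mark the fixed letters, and each is written from CCAAT to CCACG.
CALR: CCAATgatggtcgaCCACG
CANX: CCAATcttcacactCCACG
CRELD2: CCAATccgagttcgCCACG
HSP90B1 (first): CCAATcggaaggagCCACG
HSP90B1 (second): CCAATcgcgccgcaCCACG
HSPA5: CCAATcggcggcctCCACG
XBP1: CCAATcgcggagggCCACG
XBP1 (log2 difference -0.79), CANX (-0.29) and HSP90B1 (-0.18), the last of these chaperones of the endoplasmic reticulum with an adjusted p of 0.0392, were lower, while CALR (0.11, adjusted p = 0.17) and CRELD2 (0.10, adjusted p = 0.33) were not called. The call of HSP90B1 was lost without methionase replicate 1 (0.244) or 2 (0.0508) and without vector replicate 1 (0.0812) or 3 (0.136). The 250 bases before the start sites of HSPA5 (chr9:125241344-125241593, minus strand) and EIF2AK3 (chr2:88627465-88627714, minus strand), the members with the largest changes in each direction, each held 4 CCAAT boxes, capitals in the lines that follow together with the ER stress element of HSPA5. EIF2AK3 held no such element in this window. The window lies inside the annotated span of EIF2AK3, which reaches chr2:88628145, and other start sites were not searched.
HSPA5: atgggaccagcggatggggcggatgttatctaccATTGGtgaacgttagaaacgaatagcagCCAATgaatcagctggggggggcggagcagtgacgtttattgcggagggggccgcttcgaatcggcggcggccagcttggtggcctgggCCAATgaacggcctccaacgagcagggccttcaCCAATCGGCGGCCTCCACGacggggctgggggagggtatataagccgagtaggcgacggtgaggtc
EIF2AK3: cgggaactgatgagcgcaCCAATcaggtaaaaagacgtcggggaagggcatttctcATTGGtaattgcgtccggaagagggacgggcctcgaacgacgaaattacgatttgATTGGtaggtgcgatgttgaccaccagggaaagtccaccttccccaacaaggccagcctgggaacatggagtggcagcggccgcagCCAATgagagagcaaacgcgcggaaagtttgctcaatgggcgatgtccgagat

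**Figure D3:**
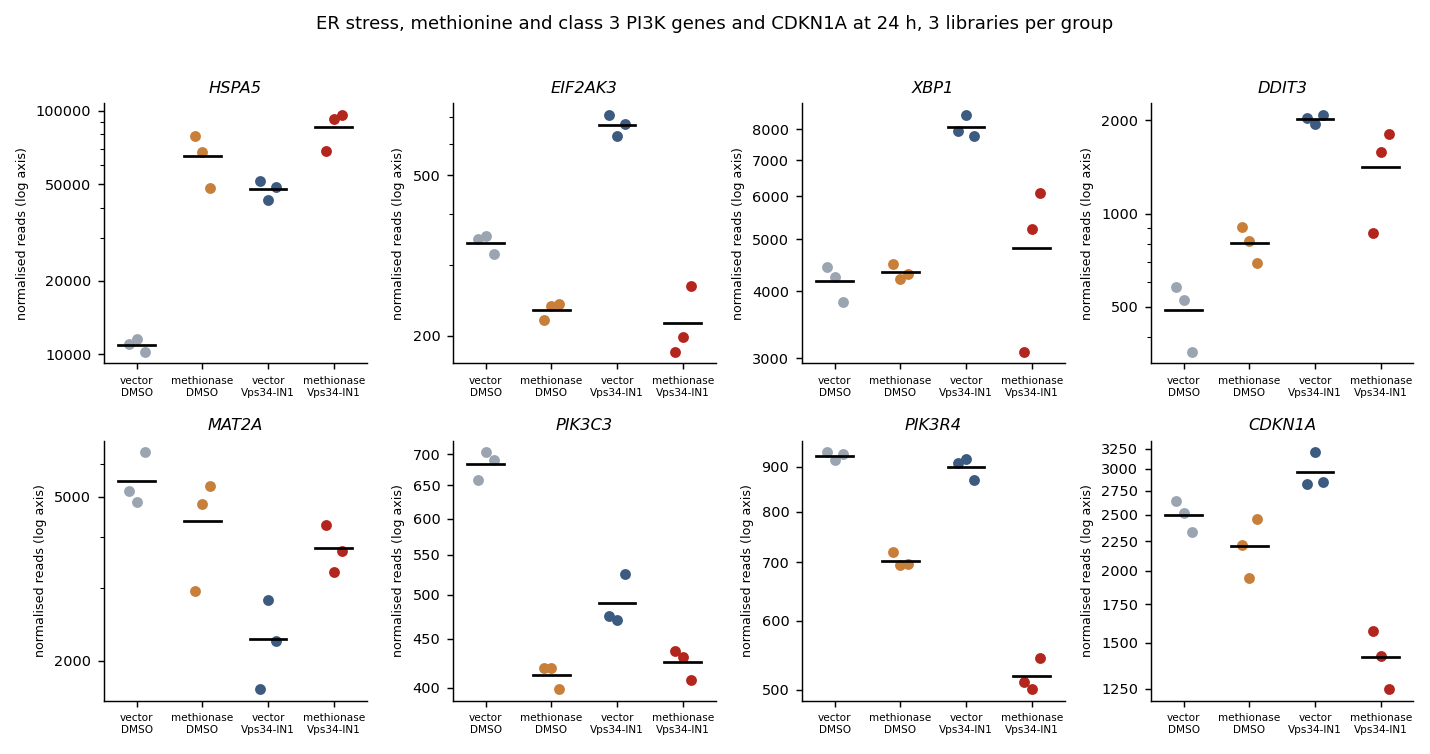
Normalised reads of 8 genes in the 4 groups at 24 h on log axes, with a point for each of the 3 libraries and a bar at the mean. Under Vps34-IN1 methionase libraries were above vector libraries for HSPA5 and MAT2A and below them for the other 6 genes, and EIF2AK3 stood at 183 to 266 reads against 627 to 706.

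Cholesterol synthesis genes, driven by the transcription factor SREBP2, were lower with methionase under the inhibitor. Of 27 tested members 18 fell (66.7%, against 22.2% of all genes), none rose (against 17.3%), and the median was -0.24. IDI1, an isomerase of the isoprenoid steps, had 11524, 13409 and 14718 reads with the vector and 7492, 9548 and 8593 with methionase (log2 difference -0.62, SE 0.09, adjusted p = 1.26e-05), with no overlap. INSIG2, which holds SREBP2 in the endoplasmic reticulum when sterols are high, fell by 0.61, the epoxidase gene SQLE by 0.51 and SREBF2, which encodes SREBP2, by 0.43. In DMSO 8 members rose and 6 fell, against 18.1% and 21.1% of all genes, with IDI1 rising by 1.05 and SQLE by 0.61. The interaction was negative for 13 of 27 and positive for 1, against 11.9% and 9.92% of all genes. With quantile normalization 11 members were called lower and 1 higher. RNF145, a ubiquitin ligase of the endoplasmic reticulum, was among the 10 largest decreases of all genes (1438, 1175 and 1168 reads against 398, 463 and 558, log2 difference -1.28). The Golgi galactosyltransferase gene B4GALT5 fell by 1.12, with 1734, 1478 and 1357 reads against 537, 716 and 724.

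Targets of ATF4, the factor translated when amino acids are short, fell with methionase in both settings. Under Vps34-IN1 19 of 40 tested members fell (47.5%, against 22.2% of all genes) and none rose, with a median of -0.21. In DMSO 29 fell and 3 rose, against 21.1% and 18.1% of all genes, with a median of -0.50. CHAC1, an enzyme that degrades glutathione, had 561, 399 and 375 reads with the vector and 125, 238 and 146 with methionase under the inhibitor (-1.10), and fell by 2.02 in DMSO. SESN2, a leucine sensor that restrains mTORC1, had 4747, 4793 and 4638 reads against 1533, 2508 and 2484 (-1.12, SE 0.14, adjusted p = 1.73e-06) and differed by -1.07 in DMSO. The amino acid transporter genes SLC38A2 (-0.86) and SLC7A1 (-0.81), the peptide hormone gene ADM2 (-0.86) and the pseudokinase gene TRIB3 (-1.02) fell. ATF4 mRNA itself was not called (31796, 34330 and 35294 reads against 27972, 34103 and 33262, log2 difference -0.09, adjusted p = 0.405), and the groups overlapped. No member of this list held the amino acid response element TGATGNAAT (both strands) in the 300-base promoter window, among 31 with a promoter. These letters were in 0.472% of the promoters of all tested genes, too few for their absence from 31 to be informative.

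Among aminoacyl-tRNA synthetase genes, many of them ATF4 targets, EPRS1 (-0.35), TARS1 (-0.29) and WARS1 (-0.21) fell. Of 23 tested members 8 fell (34.8%, against 22.2% of all genes) and none rose. The number that fell was 5 without methionase replicate 1 and 4 with quantile normalization. The list of methionine, S-adenosylmethionine and polyamine genes had 12 of 30 members lower (40%, against 22.2% of all genes) and 3 higher. MAT2A makes S-adenosylmethionine, and its transcript is known to be stabilised when methionine is low. It had 1708, 2807 and 2235 reads in the vector libraries under Vps34-IN1 and 4257, 3283 and 3691 in the methionase libraries (log2 difference 0.73, SE 0.17, adjusted p = 0.00153), with no overlap. In DMSO it was 5167, 4844 and 6405 with the vector and 2946, 4811 and 5309 with methionase (-0.36, adjusted p = 0.103), so the interaction was positive (1.09, adjusted p = 0.00221). The vector libraries under Vps34-IN1 had the lowest MAT2A of the 4 groups at 24 h. The salvage enzyme gene MRI1 rose by 0.18, a call lost without methionase replicate 1 (adjusted p = 0.127), methionase replicate 2 (0.0523) or vector replicate 2 (0.0724). MTRR, which reactivates methionine synthase, fell by 0.68, and the polyamine genes AZIN1 and AMD1 fell by 0.61 and 0.57. AHCY, which clears S-adenosylhomocysteine, was not called (-0.03, adjusted p = 0.743).

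Replication-dependent histone genes gave the largest increases among protein-coding genes. Their mRNAs end in a conserved stem-loop and normally carry no poly-A tail. The libraries were enriched for poly-A RNA, so a change in the amount and a change in the tail of these mRNAs cannot be told apart. Of 34 tested members 26 rose (76.5%, against 17.3% of all genes), 1 fell, and the median was 0.65. That median was 1.15 with voom on the recovered counts. With no filter it was 0.32, and 29 of the 56 members tested were called higher and 1 lower. The filter used the mean of all 18 libraries, so members could pass it through the libraries where they were high. The stricter filter on low values tested 21 members and called 16 higher. H2BC21 had 3483, 4178 and 4479 reads with the vector and 13948, 15394 and 11826 with methionase (log2 difference 1.74, SE 0.16, adjusted p = 2.73e-08). H4C5 rose from 40.0, 97.0 and 105 reads to 708, 528 and 476 (2.10, SE 0.16, adjusted p = 1.87e-09), and H2BC18 from 33.8, 48.0 and 65.3 to 563, 400 and 300 (2.05). H2BU1, outside the list, had 134, 189 and 257 reads against 2016, 1074 and 777 and the largest increase of any named gene (2.25, SE 0.23, adjusted p = 6.79e-08). H3C2 rose by 1.24 and the linker histone gene H1-2 by 1.05. H3C6 was the only member that fell (-0.40, adjusted p = 0.00335). Histone genes are near-identical copies of each other, so reads may have been split among them.

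Histone reads made up 0.0776% ± 0.0082 of each vector library and 0.169% ± 0.0091 of each methionase library under the inhibitor (SD, n = 3). In DMSO the shares were 0.0163% ± 0.00069 and 0.0812% ± 0.0173. The methionase libraries were thus above the vector libraries in both settings, and the vector under Vps34-IN1 lay close to methionase alone. In DMSO 30 of the 34 members rose and none fell, against 18.1% and 21.1% of all genes. The interaction was negative for 10 and positive for none, against 11.9% and 9.92% of all genes. It was -2.78 for H2BC21 and -1.77 for H1-2, while the interactions of H4C5 (0.49, adjusted p = 0.13) and H2BC18 (0.19, adjusted p = 0.664) were not called. The vector libraries in DMSO held so few reads of both (5.46, 7.44 and 5.54 for H4C5, 2.73, 4.65 and 0.923 for H2BC18) that the log2 scale compresses their differences there, and likeness between the settings cannot be read from these values.

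The 16-base stem-loop, searched as GG, 2 free bases, CTTTT, 1 free base, AG, 1 free base and GCC, was found in GENCODE 29 transcripts of 16 of the 32 tested histone genes annotated there. Of these, 11 were called higher, as were 13 of those without a match, whose annotated transcripts may end before the loop. The loops of 3 leading genes are given with the free positions of the search in lower case and its fixed letters in capitals.
H2BC21: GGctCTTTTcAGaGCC
H2BC18: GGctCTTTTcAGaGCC
H4C5: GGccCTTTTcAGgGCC
The histone promoters with a RefSeq entry held a CCAAT box in 29 of 33 cases (87.9%, against 36.0% of tested genes). The 250 bases before the start site of H2BC21 (chr1:149886683-149886932, minus strand), shown for its negative interaction, held 3 of them, in capitals.
H2BC21: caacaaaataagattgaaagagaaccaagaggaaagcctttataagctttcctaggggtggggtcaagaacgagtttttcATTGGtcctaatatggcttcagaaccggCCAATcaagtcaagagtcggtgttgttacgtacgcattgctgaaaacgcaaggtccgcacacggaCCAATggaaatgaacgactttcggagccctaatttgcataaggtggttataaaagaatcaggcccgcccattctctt

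SnoRNAs, small guides for the chemical modification of ribosomal RNA that are cut from introns of host genes, moved with the histones. Of 161 tested, 135 rose and none fell, with a median of 0.74, against 17.3% higher and 22.2% lower among all genes. The filter for testing used the mean of all 18 libraries. A snoRNA near 0 with the vector could pass it through the methionase libraries, so these counts can lean to increases. How many passed in that way was not tested. The C/D box class, which guides 2′-O-methylation, had 84 of 99 members higher, and the H/ACA class, which guides pseudouridylation, 46 of 52. In DMSO 137 rose and 1 fell, against 18.1% and 21.1% of all genes. The interaction was positive for 5 and negative for 6, against 9.92% and 11.9% of all genes. SnoRNAs carry no poly-A tail either. SNORD14E had 3.07, 7.15 and 1.04 reads with the vector and 410, 120 and 57.2 with methionase (log2 difference 2.02, SE 0.29, adjusted p = 6.99e-06). SNORD14D had 1.02, 6.13 and 6.22 against 308, 133 and 61.6 (1.92), and both were highest in methionase replicate 1. SNORD74 had 32.8, 51.1 and 43.5 against 384, 352 and 351 (1.98, SE 0.13, adjusted p = 1.22e-10), the narrowest spread of the leading snoRNAs. SNORD76 (1.63) and SNORD101 (1.60) completed the 10 largest increases together with NEAT1.

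The sequences of 3 leading snoRNAs are given from GENCODE 29, with the C box TGATGA and the D box CTGA in capitals where a search found those exact letters near the ends.
SNORD14E: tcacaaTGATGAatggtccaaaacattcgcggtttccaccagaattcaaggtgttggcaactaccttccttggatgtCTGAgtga
SNORD14D: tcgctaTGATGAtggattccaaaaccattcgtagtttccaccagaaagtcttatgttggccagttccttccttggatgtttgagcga
SNORD101: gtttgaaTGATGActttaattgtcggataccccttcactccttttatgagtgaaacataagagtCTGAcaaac
SNORD14D and SNORD14E lie in introns of HSPA8 on chromosome 11, SNORD74 and SNORD76 in introns of GAS5 on chromosome 1, and SNORD101 in an intron of RPS12 on chromosome 6. The host genes changed less: HSPA8 rose by 0.87 and GAS5 by 0.60, and RPS12 differed by 0.24 (adjusted p = 0.151). The table holds 1 value per gene, so mature snoRNA and unspliced host transcript cannot be told apart. Host genes with little coding function and other nuclear RNAs formed a list of 20, of which 11 rose (55%, against 17.3% of all genes) and 1 fell. SNHG12 rose by 0.82 and SNHG3 by 0.71, and the nuclear RNA MALAT1 rose from 24.6, 23.5 and 35.2 reads to 173, 112 and 192 (1.31). NEAT1, the scaffold of paraspeckles, had 15.4, 76.6 and 61.2 reads against 447, 272 and 326 (1.86). The cytoplasmic NORAD fell by 0.53.

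**Figure D4:**
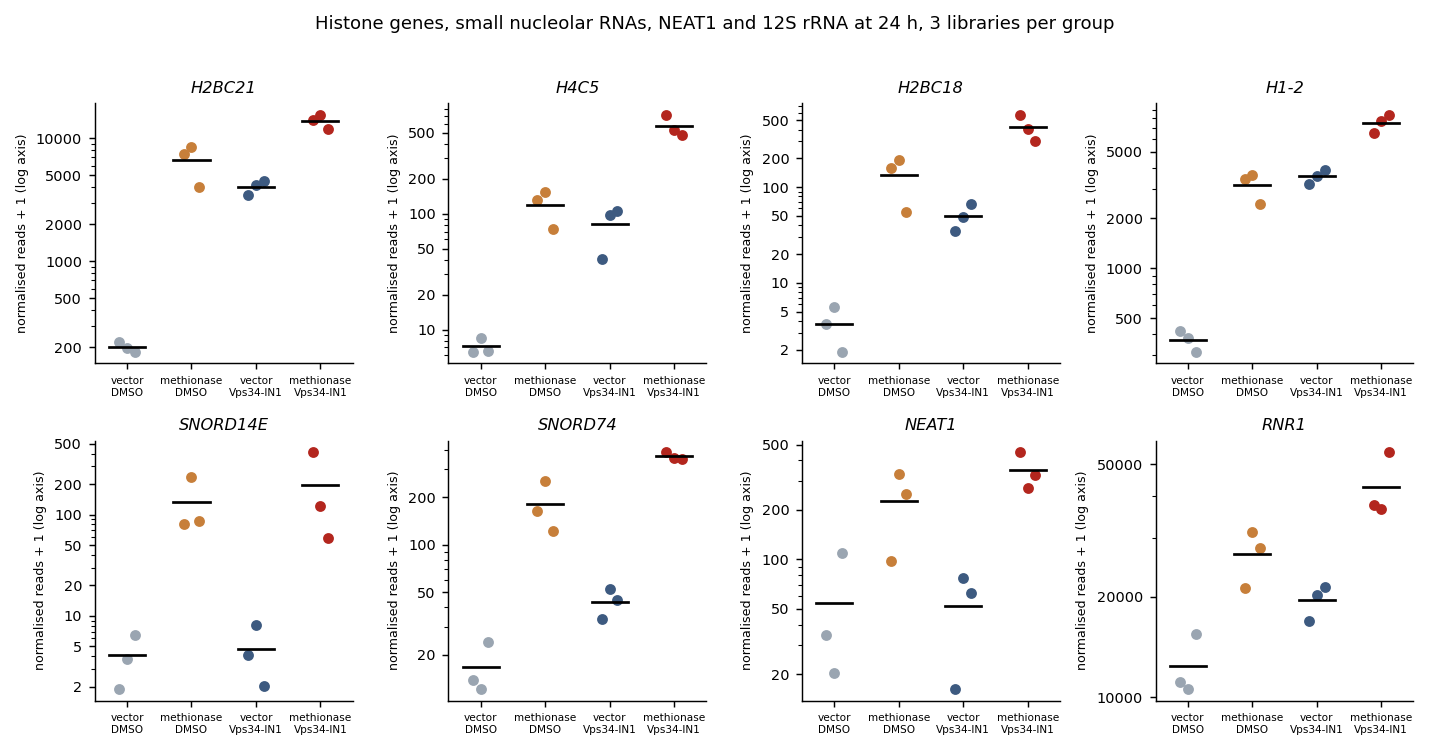
Normalised reads plus 1 of 8 genes in the 4 groups at 24 h on log axes, with a point for each of the 3 libraries and a bar at the mean. In every panel the methionase libraries under Vps34-IN1 lie above the vector libraries under Vps34-IN1, and H2BC21 reached 15394 reads.

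Mitochondrial RNAs moved apart by class. The 12S rRNA gene RNR1 had 16939, 20311 and 21356 reads with the vector and 37593, 36651 and 54158 with methionase (log2 difference 1.11, adjusted p = 2.37e-06), and the 16S gene RNR2 rose by 0.80, a call lost with quantile normalization (adjusted p = 0.0837). Together they took 1.20% ± 0.193 of vector reads and 2.18% ± 0.288 of methionase reads (SD, n = 3). In DMSO RNR1 rose by 1.11 and RNR2 by 1.49. The mitochondrial transfer RNAs went the other way, with 8 of 10 tested lower and none higher, against 22.2% and 17.3% of all genes. They were led by TRNY (407, 403 and 445 reads against 99.4, 143 and 93.0, -1.42) and TRNL1 (-1.23). In DMSO 8 transfer RNAs were lower and none higher as well, with a median of -0.55, against 21.1% and 18.1% of all genes. CYTB, a subunit of complex III, rose by 0.70 under the inhibitor and fell by 0.62 in DMSO (interaction 1.32, adjusted p = 0.00558), and ND1, of complex I, fell by 0.86 (adjusted p = 0.0221). The call of CYTB was lost without methionase replicate 3 (adjusted p = 0.0665), vector replicate 1 (0.0593) or vector replicate 3 (0.0513), and that of ND1 without methionase replicate 1 (0.0996) or vector replicate 3 (0.0661). Of the 15 rRNA and protein genes of this genome 5 rose (33.3%, against 17.3% of all genes) and 1 fell. The number called higher ranged from 2 to 10 over the alternatives. It was 3 without methionase replicate 2 or vector replicate 3 and 2 without methionase replicate 3 or vector replicate 1. Histone, snoRNA and mitochondrial rRNA reads moved together with methionase, and the part of poly-A selection or RNA quality in this was not tested.

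The class 3 PI3K and autophagy genes, which include the target of the inhibitor, were mostly lower with methionase. Of 43 tested members 26 fell (60.5%, against 22.2% of all genes) and 1 rose (against 17.3%), with a median of -0.21. With quantile normalization 16 fell and 2 rose (median -0.11). PIK3R4, the regulatory subunit of VPS34, had 910, 918 and 869 reads with the vector and 511, 502 and 544 with methionase (log2 difference -0.71, SE 0.06, adjusted p = 3.02e-09). PIK3C3, the catalytic subunit, had 475, 471 and 526 against 437, 430 and 408 (-0.18, SE 0.06, adjusted p = 0.0271). The groups did not overlap, but the call of PIK3C3 was lost with quantile normalization (adjusted p = 0.231), equal medians (0.0694), only the 6 libraries (0.13) and without methionase replicate 3 (0.0732) or vector replicate 3 (0.138). In DMSO PIK3C3 fell by 0.63, from 658, 703 and 690 reads to 419, 419 and 399, and its interaction was 0.46 (adjusted p = 0.000579). PIK3C3 thus stood between 399 and 437 reads in all 6 methionase libraries at 24 h, and the vector libraries under the inhibitor lay between these and the vector in DMSO.

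BECN1, the scaffold of the complex, fell by 0.23 in both settings (adjusted p = 0.00778 under the inhibitor, 0.204 with quantile normalization). ATG14, which directs the complex to autophagosomes, fell by 0.37 and differed by 0.06 in DMSO (adjusted p = 0.52). RB1CC1, a scaffold of the ULK kinase complex, fell by 0.51 and the autophagy receptor gene SQSTM1 by 0.41. ATG4B, a protease that processes LC3, was the member called higher (0.20, adjusted p = 0.0378), and that call was lost without methionase replicate 1 (0.183), methionase replicate 2 (0.0944) or vector replicate 1 (0.257). The interaction was negative for 14 of the 43 and positive for 4, against 11.9% and 9.92% of all genes.

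Endosome and lysosome genes shared this direction. Of 39 endosome genes tested 23 fell (59%, against 22.2% of all genes) and none rose. Among those that fell were MTMR4, a phosphatase that removes the lipid made by VPS34 (-0.57), and the early endosome GTPase genes RAB5B (-0.59) and RAB5A (-0.48). The tethering protein gene EEA1, which binds that lipid, fell by 0.62. Of 49 lysosome genes 27 fell (55.1%) and none rose. Those that fell included RRAGC (-0.77), a GTPase that brings mTORC1 to the lysosome, and its regulators FNIP1 (-0.70) and FNIP2 (-0.64). The corresponding DMSO counts were 18 lower and 5 higher for endosome genes and 13 lower and 6 higher for lysosome genes. Of all genes 21.1% were lower and 18.1% higher in DMSO. With quantile normalization 15 endosome and 16 lysosome genes were called lower. The lysosomal E-box TCACGTGA (both strands) was in 6 of 35 lysosome promoters (17.1%, against 1.78% of tested genes).

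Most lists of chromatin genes had more members lower than higher in the authors' scaling. Among histone methyltransferase genes 14 of 33 fell (42.4%, against 22.2% of all genes) and 4 rose (12.1%, against 17.3%). SETD7 (-0.66), PRDM4 (-0.50) and KMT2E (-0.46) were lower and the Polycomb enzymes EZH1 (0.48) and EZH2 (0.20) higher. With quantile normalization 8 fell and 7 rose. Among histone demethylase genes 11 of 21 fell (52.4%, against 22.2% of all genes). They included JMJD1C (743 reads on average with the vector and 338 with methionase, log2 difference -0.99), KDM3A (-0.46) and KDM4B (-0.55). PHF8 was the member that rose (0.36). Of 16 genes of DNA methylation and its readers 3 rose (18.8%, near the 17.3% of all genes) and 1 fell. HELLS (0.33) and UHRF1 (0.22), which target the maintenance methyltransferase, rose under the inhibitor and fell in DMSO (-0.31 and -0.51), and UHRF2 fell under the inhibitor (-0.41) and rose in DMSO (0.51). The UHRF1 call was lost without methionase replicate 1 (adjusted p = 0.0503). Of 36 remodeller genes 15 fell (41.7%, against 22.2% of all genes) and 3 rose (8.33%, against 17.3%). CHD1 (-0.53), INO80 (-0.40) and SMARCAD1 (-0.41) were lower and ATRX (0.36) higher. With quantile normalization 9 remodeller genes were called lower and 10 higher, so the direction of that list depends on the scaling.

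Genes of the G1/S transition and of DNA replication were lower in both settings. Under the inhibitor 34 of 57 fell (59.6%, against 22.2% of all genes) and 2 rose. In DMSO 38 fell and 2 rose, against 21.1% and 18.1% of all genes. With quantile normalization 22 fell and 4 rose under the inhibitor. E2F3, a factor that drives S phase, fell by 0.99, the uracil glycosylase gene UNG by 0.69 and the phosphatase gene CDC25A by 0.57, whereas GINS4 rose by 0.23. An E2F site (TTTGGCGC or TTTCCCGC, both strands) was in 20 of 46 promoters of this list (43.5%, against 3.57%). Of 42 genes of G2 and mitosis 8 fell (19%, near the 22.2% of all genes), including WEE1 (-0.78), ANLN (-0.52) and KIF23 (-0.38), and 6 rose, including UBE2C (0.32) and KIF20A (0.29). With quantile normalization 4 fell and 13 rose, and without vector replicate 1, 5 fell and 5 rose. In the list of p53 targets, arrest and apoptosis 20 of 36 fell (55.6%, against 22.2% of all genes) and 3 rose. The cell cycle inhibitor CDKN1A had 2822, 3202 and 2845 reads with the vector and 1575, 1425 and 1250 with methionase (-1.02, SE 0.08, adjusted p = 2.56e-09), with no overlap, and differed by -0.18 in DMSO (adjusted p = 0.0879). SESN1 fell by 0.62, and the death receptor gene FAS (0.54) and GADD45G (0.39) rose, the latter with an adjusted p of 0.0517 without methionase replicate 2.

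The list of fasting and FOXO genes had 15 of 37 members lower (40.5%, against 22.2% of all genes) and 6 higher. The share higher was 16.2%, near the 17.3% of all genes. PPARA, the nuclear receptor of fasting metabolism, had 429, 394 and 351 reads with the vector and 287, 252 and 252 with methionase (-0.46, adjusted p = 8.1e-05) and fell by 0.54 in DMSO. The arrestin gene ARRDC4 fell by 0.83 and the class 1 PI3K gene PIK3CA by 0.76, while ACADVL, of fatty acid oxidation, rose by 0.39 and the lipid droplet gene PLIN2 by 0.28. TXNIP, which restrains glucose uptake, had 222, 138 and 161 reads with the vector and 121, 101 and 102 with methionase (-0.44, adjusted p = 0.106). The groups did not overlap, and TXNIP was called when only the 6 libraries were fitted (adjusted p = 0.0102). In DMSO TXNIP rose by 0.70, and its interaction was -1.14 (adjusted p = 0.00839). Of 39 genes of glycolysis and hypoxia 14 fell (35.9%, against 22.2% of all genes) and none rose. HIF1A was at 1451, 1400 and 1407 reads against 797, 708 and 714 (-0.87, SE 0.06, adjusted p = 2.03e-10) and the oxidoreductase gene ERO1A at -0.42. In DMSO 26 fell, against 21.1% of all genes, and the interaction was positive for 11, against 9.92% of all genes. SLC2A3, a glucose transporter, had the most positive interaction of the named genes (1.41, adjusted p = 4.4e-05): it fell in DMSO from 750, 826 and 718 reads to 297, 229 and 213, and the vector libraries under the inhibitor were already at 259, 226 and 236.

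Ribosomal protein genes rose for 32 of 78 tested members (41%, against 17.3% of all genes), with none lower and a median of 0.21. Examples were RPS15A (0.50), RPL36 (0.41) and RPL36A (0.49), and without vector replicate 2 the number higher was 19. Nuclear genes of the respiratory chain rose for 17 of 73 (23.3%, against 17.3% of all genes) and fell for 4 (5.48%, against 22.2%). NDUFB3 (0.52), NDUFB1 (0.51) and UQCRB (0.44) were higher and SDHA and SDHC (both -0.23) lower, the last not called without vector replicate 1 (adjusted p = 0.0647). With quantile normalization 39 rose. Heat shock genes rose for 9 of 24 (37.5%, against 17.3% of all genes) and fell for 2. HSPA1B, whose reads cannot be told apart with certainty from its near-identical neighbour HSPA1A, had 201, 145 and 163 reads against 943, 453 and 308 (1.27), HSPA8 rose by 0.87 and CHORDC1 by 0.32, and DNAJB6 (-0.22) and HSF2 (-0.32) fell. Without methionase replicate 1, 5 heat shock genes were called higher. Among NRF2 genes 6 of 24 fell (25%, near the 22.2% of all genes) and 2 rose. CUL3, the scaffold of the ligase that degrades NRF2, had 1088, 951 and 913 reads against 499, 444 and 460 (-0.95, SE 0.07, adjusted p = 2.91e-10), GCLC (-0.49) and MAFG (-0.41) fell, and HMOX1 (0.46) and TXN (0.31) rose.

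Proteasome genes changed at about or below the rate of all genes, with 6 of 37 lower and 1 higher. Those that fell included the protease gene DDI2 (-0.69) and its substrate NFE2L1 (-0.40), which together raise proteasome synthesis, and PSMD12 (-0.44), and PSMD13 rose (0.19, adjusted p = 0.0249). The call of PSMD13 was lost without vector replicate 2 (0.122) or 3 (0.0792) and without methionase replicate 2 (0.081) or 3 (0.0709). With quantile normalization 3 fell and 9 rose. Interferon and NF-kB genes were near the background as well, 6 of 22 lower and 5 higher: the RNA sensor gene DDX58 (-0.71), RELB (-0.37) and TNFAIP3 (-0.36) fell, and LIF (0.56) and IFIT1 (0.43) rose. Of the 12 HEK293 markers tested, PAX2 and NES rose, each by 0.38, a share of 16.7%, near the 17.3% of all genes.

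Across all genes the comparison under Vps34-IN1 and the comparison in DMSO shared 1245 genes called higher in both, which is 40.4% of the genes higher under the inhibitor and 38.8% of those higher in DMSO, and 1846 called lower in both (46.9% and 49.3%). In DMSO 6955 of all tested genes were called (39.2%), with 18.1% called higher and 21.1% lower. Opposite calls were made for 302 genes that fell under the inhibitor and rose in DMSO, 7.67% of those that fell under it. Another 206 rose under the inhibitor and fell in DMSO, 6.69% of those that rose under it. Of the 3937 genes lower under the inhibitor, 1367 had a negative interaction, 163 a positive one and 2407 neither. Of the 3079 higher, 685 had a positive interaction, 72 a negative one and 2322 neither. Of all tested genes 9.92% had a positive and 11.9% a negative interaction. The interaction contains the difference under the inhibitor, so genes chosen by that difference lean to its sign. These splits are therefore no separate result. Other genes with large positive interactions were RBM12, an RNA binding protein gene (1.33, up 0.42 under the inhibitor and down 0.92 in DMSO), CYTB (1.32), NCOA5, a nuclear receptor cofactor gene (1.21), and EMILIN3, of the extracellular matrix (1.20). In RBM12 the vector libraries had 2430, 2639 and 2425 reads in DMSO and 584, 578 and 607 under Vps34-IN1, and the methionase libraries 1225, 1299 and 1326 in DMSO and 804, 870 and 778 under the inhibitor.

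**Figure D5:**
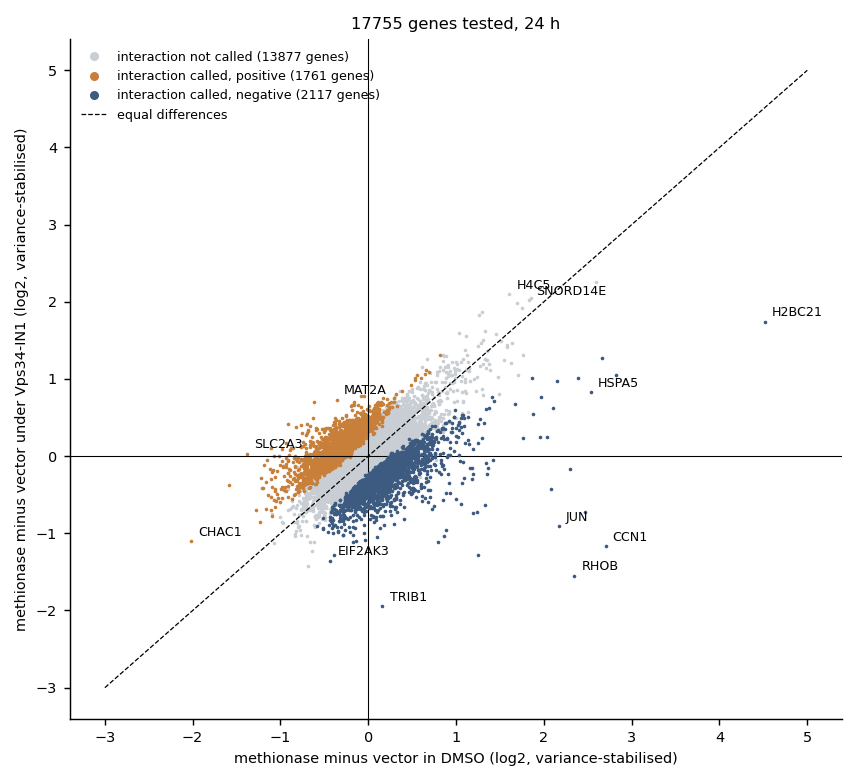
Difference between methionase and vector under Vps34-IN1 (vertical axis) against that in DMSO (horizontal axis), both log2 on the variance-stabilised scale, with a point for each of the 17755 genes tested and the dashed line at equal differences. The 2117 genes with a called negative interaction lie below the line, RHOB and CCN1 furthest below it among the named genes, and the 1761 with a positive one lie above it.

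A CCAAT box was in 38.1% of the promoters of genes lower under the inhibitor, 34.1% of those of genes higher and 36.0% of all tested. The CRE, AP-1 site and lysosomal E-box were rarer. Of 3217 promoters of genes lower under the inhibitor 4.07% held a CRE and 2.42% an AP-1 site, against 2.50% and 3.21% of 2116 promoters of genes higher, and 3.18% and 2.92% of all 12911 tested genes with a promoter in the RefSeq table. The lysosomal E-box was in 2.92% of the lower and 0.945% of the higher genes. These shares are descriptions, and a match in a promoter was not shown to be bound in these cells.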

How the data were processed

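Libraries came from poly-A RNA of HEK293T cells by a dUTP kit, per the labels' protocols. The tools named, per the submitters' processing notes, were featureCounts, STAR 2.7.10b, limma and DESeq2, with hg38 as the build and no roles stated. Neither the annotation nor the strand setting of the counting is given here, and reads of overlapping genes on opposite strands may be mixed. The authors deposited log2 values after a variance-stabilising transformation, whose lowest value was 5.45. Undoing it gave whole reads within 0.01 for 100% of the values, and counts were divided by the recovered size factors. Of 37097 lines, 1 named no gene and was left out (at most 0.0022% of a library). Genes with a mean at least 0.5 above the lowest value were tested, 17755 in all. All 18 libraries entered a limma fit (version 3.58.1, R 4.3.3) of the log2 values, with a variance trend and a mean for each group. The fit of all groups gave 1 shared estimate of the spread, on 12 residual degrees of freedom. Calls had a Benjamini-Hochberg adjusted p below 0.05 over all tested genes, two-sided. Replicates were compared by a chi-square per gene, and none was a copy of another. The procedure was tested on simulated data.

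The comparison and the 30 gene lists were chosen with earlier results of these data known, so list counts are descriptions. Named genes were the 10 largest increases and decreases among called genes whose libraries did not overlap, the 6 largest interactions in each direction, up to 3 called members of each list in its main direction and 2 against it, and 10 followed genes. Other named genes were chosen after their values were seen, and some genes the rule names are not reported here. Promoters came from RefSeq (GRCh38.p14), snoRNA and histone transcripts from GENCODE 29. Alternatives were no filter, a stricter filter at 1 (14322 genes), quantile normalization, equal library medians, no variance trend, array quality weights, a replicate block, voom on the recovered counts, only the groups compared, and each replicate left out.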

Additional observations from a re-analysis of the deposited data

Results flagged for a closer look

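Each gene below was named above and had a methionase effect that differed between Vps34-IN1 and DMSO by a test of the difference itself, limma's interaction term with an adjusted p below 0.05 over all tested genes. The value after each gene is the log2 effect with the inhibitor minus the log2 effect without it, so a negative value means that the effect was lower with the inhibitor. There were 83 such genes among the 162 named. Some were chosen for this difference, so their number is no measure of how common it was. The calls of AZIN1, CANX, CHAC1, FNIP1, GAS5, HMOX1, KDM4B, RB1CC1, RELB, SMARCAD1, SREBF2 and UNG were lost in at least 1 alternative.

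Among immediate early and growth arrest genes, the differences were those of RHOB (-3.90), CCN1 (-3.87), ATF3 (-3.19), JUN (-3.08), KLF6 (-2.53), TRIB1 (-2.11), GADD45A (-1.96), DUSP5 (-1.92), GADD45B (-1.85), FOS (-1.37), CDKN1A (-0.85), SRF (-0.78), AMOTL2 (-0.72), JUNB (-0.64) and VCL (-0.35). The genes of histones and cell division with a negative value were H2BC21 (-2.78), H1-2 (-1.77), WEE1 (-0.83), CDC25A (-0.78), ANLN (-0.62), E2F3 (-0.60) and UNG (-0.29), and FAS, a death receptor gene, had a positive value (0.59).

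Endoplasmic reticulum stress genes and chaperones had these negative values: HSPA5 (-1.71), HSPA1B (-1.39), DDIT3 (-1.19), SEC24D (-1.17), ERN1 (-0.98), EIF2AK3 (-0.92), XBP1 (-0.85), HSP90B1 (-0.76), HSF2 (-0.59), CALR (-0.52), ATF6 (-0.50) and CANX (-0.37). Of the genes of the amino acid response, CHAC1 (0.92) had a positive value. The sterol and glycosylation genes were IDI1 (-1.68), SQLE (-1.12), B4GALT5 (-0.94), RNF145 (-0.89) and SREBF2 (-0.37).

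In endosomal, autophagy and phosphoinositide genes the differences were EEA1 (-0.72), PIK3CA (-0.71), RAB5A (-0.64), MTMR4 (-0.48), ATG14 (-0.44), FNIP1 (-0.38), SQSTM1 (-0.36), PIK3R4 (-0.35), RAB5B (-0.34) and RB1CC1 (-0.30) on the negative side and ATG4B (0.58) and PIK3C3 (0.46) on the positive side. Chromatin genes with a negative value were JMJD1C (-0.94), UHRF2 (-0.91), KMT2E (-0.50), CHD1 (-0.42) and KDM4B (-0.28), and those with a positive value were UHRF1 (0.72), HELLS (0.65), PHF8 (0.42) and SMARCAD1 (0.27).

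The remaining positive values belonged to SLC2A3 (1.41), RBM12 (1.33), CYTB (1.32), NCOA5 (1.21), EMILIN3 (1.20), MAT2A (1.09), GINS4 (0.72), IFIT1 (0.58), NES (0.53), PLIN2 (0.49) and HMOX1 (0.44). The remaining negative values belonged to TXNIP (-1.14), SNHG3 (-0.72), NFE2L1 (-0.70), DDX58 (-0.67), RELB (-0.47), HIF1A (-0.46), MAFG (-0.42), GAS5 (-0.38), DDI2 (-0.38) and AZIN1 (-0.34).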

How the results depend on the processing

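No alternative turned a call of the comparison under Vps34-IN1 or of its difference from DMSO in the opposite direction. Of 7016 calls under the inhibitor, 4825 to 6842 were kept by the 9 alternatives that used every replicate, which called 5531 to 7167 genes, and 5463 to 6038 were kept when 1 library was left out, with 5738 to 6803 called. The difference between the inhibitor and DMSO was called for 3878 genes, of which 2910 to 3781 were kept by the same kinds of alternative and 3000 to 3535 with 1 library left out. Changes of at least 1 on the log2 scale numbered 88 upward and 25 downward. With voom on the recovered counts they numbered 777 and 120, a scale without the compression of low counts, and 42 fell by that much without methionase replicate 3. Equal library medians moved the median of all genes from 0.0084 to 0.039 and quantile normalization moved it to -0.0021. The labels do not say that a replicate number marks a shared culture or day, so the numbers were not taken as pairs. Deviations of replicates with the same number correlated at r = -0.14, -0.26 and 0.0137 over genes under the inhibitor. In DMSO the values were 0.156, -0.166 and 0.162. Deviations from a mean of 3 libraries constrain each other, so these values cannot decide on pairing. With the replicate block, 3067 genes were higher and 3884 lower under the inhibitor, and 1704 and 2065 differed from DMSO upward and downward. Of the genes named, 155 were called under the inhibitor and 135 stayed called in every alternative. Quantile normalization ended the calls of SDHA (adjusted p = 0.0568), DNAJB6 (0.059), GADD45G (0.0601), SDHC (0.0719) and WARS1 (0.165), and leaving out methionase replicate 1 ended that of CANX (0.0646). Of 83 called differences between the inhibitor and DMSO among them, 12 lost their call in at least 1 alternative: AZIN1, CANX, CHAC1, FNIP1, GAS5, HMOX1, KDM4B, RB1CC1, RELB, SMARCAD1, SREBF2 and UNG. Of the named genes not called under the inhibitor, AHCY and SLC2A3 changed sign. AHCY (-0.03) was at 0.0015 with equal medians and 0.04 with quantile normalization, and from -0.065 without vector replicate 2 to 0.033 without methionase replicate 1, also turning with vector replicate 1 left out (0.0048). SLC2A3 (0.03) reached 0.19 when methionase replicate 1 was left out and -0.058 when it was methionase replicate 3, and was also negative without methionase replicate 2 (-0.041) or vector replicate 2 (-0.0045). Low counts limit single genes, since the transformed values compress differences near the lowest value.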
